A study of Mus musculus with 56 samples.

Results

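The chemokine genes Cxcl1, Cxcl2, Cxcl5, Cxcl10, Cxcl12, Cxcl16, Ccl2, Ccl5, Ccl7 and Ccl20 were followed in cell lines from mouse mammary tumors. They are 10 named genes of the 20314 in the expression table, and all 10 were among the 13754 genes that were tested because 2 or more samples reached 1 CPM. CPM are read counts scaled to an effective library size. The members were chosen by name, with earlier results of these data known, and their levels and responses were described in all 28 conditions.

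Chemokines are small secreted proteins that direct the movement of cells along a gradient by binding receptors on their surface. In tumors they help decide which leukocytes enter the tissue, and many of their genes are switched on by NF-kB or by interferon. TGFβ is known to restrain inflammatory genes and to drive epithelial-mesenchymal transition (EMT), while Wnt3a stabilizes β-catenin and raises the transcription of its targets.

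The lines came from tumors of female MMTV-PyMT mice of the FVB/N background, in which the mouse mammary tumor virus promoter drives the polyoma middle T oncogene in mammary epithelium, and all groups carried this transgene. There were 7 β-catenin genotypes with 8 samples each. In fl/fl cells, both alleles were floxed and acted as wild type. In D164A/fl, ΔC/fl and dm/fl cells, a mutant allele stood beside a floxed one, and in D164A/-, ΔC/- and dm/- cells the floxed allele had been deleted by an adenovirus carrying Cre recombinase and GFP, after which GFP-positive cells had been sorted. The D164A protein cannot bind Bcl9 and Bcl9L, which are transcriptional cofactors of β-catenin. The labels do not spell out ΔC and dm. Cells of the Wnt3a experiment were cultured for 3 days with Wnt3a at 100 ng/ml or without it, and cells of the TGFβ experiment for 4 days with TGFβ at 2 ng/ml or without it, each condition in biological duplicate. The labels do not say how many lines stood for a genotype, or which fl/fl samples came from which of the independent fl/fl lines of the study, so that a genotype and a cell line cannot be told apart, and where duplicates are cultures of the same line a p-value measures only the spread between cultures.

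Per sample, 22.4 to 33.7 M reads fell on genes, and 3 reads, the level taken as detection, corresponded to 0.0917 to 0.146 CPM. In 54 of 56 samples the most similar other sample had the same genotype. The exceptions were replicate 1 of untreated dm/fl cells and replicate 2 of untreated D164A/fl cells, both in the Wnt3a experiment. Most called fold changes of members that rest on these 2 samples are given with and without them. Of the 6 epithelial markers, 5 reached 1 CPM in all samples, among them Epcam and Cdh1. The exception was Krt5, which did not exceed 0.1293 CPM in ΔC/fl and 0.3163 CPM in ΔC/- cells. Its median was 1.505 CPM in fl/fl and 151.6 CPM in D164A/fl cells. Krt14 also differed widely and ranged from 7.992 to 2694 CPM over all samples. The 6 fibroblast markers summed to 5.58 to 32.7 CPM in fl/fl cells but to 74.0 to 745 CPM in ΔC/fl and 45.6 to 537 CPM in dm/fl cells. There 5 of 6 markers reached 1 CPM in some sample, while Lum was at or near 0. Medians in ΔC/fl and dm/fl cells were 0.116 and 0.282 CPM for Dcn, 2.78 and 3.38 CPM for Col1a2, and 5.40 and 4.58 CPM for Col1a1. The sums were thus mainly those of Pdgfra and Pdgfrb. The 7 leukocyte markers summed to 292 to 533 CPM in dm/fl cells, nearly all of it Csf1r, with Adgre1 and Cd3e at 0 there and Ptprc at most 0.110 CPM. Csf1r also stood at 51.2 to 215 CPM in fl/fl and 17.3 to 57.2 CPM in dm/- cells. Cd68 stood at 7.99 to 79.4 CPM in ΔC/- and 12.9 to 62.15 CPM in dm/- cells. The 4 endothelial markers summed to 34.05 and 35.15 CPM in TGFβ-treated dm/fl cells, nearly all of it Cdh5, and to at most 3.715 CPM in the other lines. The Wnt target Axin2 was higher with Wnt3a in 6 lines, the exception being dm/- cells, where Axin2 was at 0 in 3 of 4 samples.

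A RefSeq promoter (GRCm38.p6) was found for 5 of 10 members, and these are shown because several hold the binding consensus of NF-kB, the factor classically tied to inflammatory chemokines. The 160 bases before each transcription start follow, from 5′ to 3′ on the strand of the gene, with every match to the NF-kB consensus in capitals. They lie at chr5:90891085-90891244 (plus strand) for Cxcl1, chr5:90903739-90903898 (plus strand) for Cxcl2, chr5:92348890-92349049 (minus strand) for Cxcl10, chr6:117168375-117168534 (plus strand) for Cxcl12 and chr1:83116606-83116765 (plus strand) for Ccl20.
Cxcl1: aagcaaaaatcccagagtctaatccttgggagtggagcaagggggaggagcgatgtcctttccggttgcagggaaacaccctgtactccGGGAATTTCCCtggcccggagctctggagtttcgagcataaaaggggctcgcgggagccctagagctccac
Cxcl2: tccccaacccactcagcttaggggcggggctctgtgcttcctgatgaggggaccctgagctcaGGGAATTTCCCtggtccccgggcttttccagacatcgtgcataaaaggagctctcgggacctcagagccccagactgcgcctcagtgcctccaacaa
Cxcl10: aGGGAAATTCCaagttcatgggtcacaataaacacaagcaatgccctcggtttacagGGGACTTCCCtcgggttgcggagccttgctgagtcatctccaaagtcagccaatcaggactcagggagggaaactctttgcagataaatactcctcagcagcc
Cxcl12: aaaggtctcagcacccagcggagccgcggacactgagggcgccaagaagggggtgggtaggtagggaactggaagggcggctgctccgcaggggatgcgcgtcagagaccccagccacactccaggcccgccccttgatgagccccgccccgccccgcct
Ccl20: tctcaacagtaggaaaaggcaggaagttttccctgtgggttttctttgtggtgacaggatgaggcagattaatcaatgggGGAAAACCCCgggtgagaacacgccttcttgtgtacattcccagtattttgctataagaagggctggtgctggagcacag

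The match lay 71 to 61 bases before the start of Cxcl1 and 97 to 87 bases before that of Cxcl2, and these neighbouring genes of chromosome 5 share the same run of letters there. Cxcl10 held a match at 159 to 150 and another at 103 to 94 bases, and Ccl20 a match on the opposite strand at 80 to 71 bases. In the Cxcl12 sequence no letters matched. Over all 15349 RefSeq promoters, searched on both strands in the 250 bases before the start, 4.37% held the consensus. Cxcl10 alone of the 5 also held the interferon-stimulated response element (GAAA, any 2 letters, GAAA, 213 to 204 bases before the start; 2.72% of promoters) and the AP-1 site TGANTCA (74 to 68 bases; 5.84%), and Cxcl12 alone held the TCF/LEF core CTTTGA (162 to 157 bases, opposite strand; 12.4%). A match describes these letters only and not the binding of a factor.

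In untreated cells, Cxcl5 and Cxcl1, which attract neutrophils, and the membrane-bound Cxcl16 had the highest levels. Per kilobase of exon, the median over the 28 untreated samples was 104 CPM per kb for Cxcl5, 61.3 for Cxcl1, 54.8 for Cxcl16 and 15.1 for Ccl2, and it lay between 0.226 (Cxcl12) and 3.86 CPM per kb (Ccl5) for the other 6 members. Cxcl1 reached 1 CPM in 56 of 56 samples, while Ccl7 did so in 27 and Cxcl2 in 26. Each line had its own combination of chemokines, as the plot of untreated levels shows. Against fl/fl cells, tested separately in the untreated cells of each experiment, members were differentially expressed in 68 of 120 comparisons (25 higher, 43 lower), beside 18.3% of all gene-by-line comparisons (9.75% higher, 8.52% lower). Differential expression required an adjusted p (limma, Benjamini-Hochberg) no greater than 0.05 and a change on log2(CPM + 1) of 1 or more in either direction. Of 60 combinations of a member and a mutant line, 27 had the same call in both experiments (9 higher, 18 lower), beside 10.3% over all genes (5.64% higher, 4.67% lower), 14 were called in a single experiment and 0 had opposite calls. The comparisons of 1 experiment share the same fl/fl samples.

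**Figure D1:**
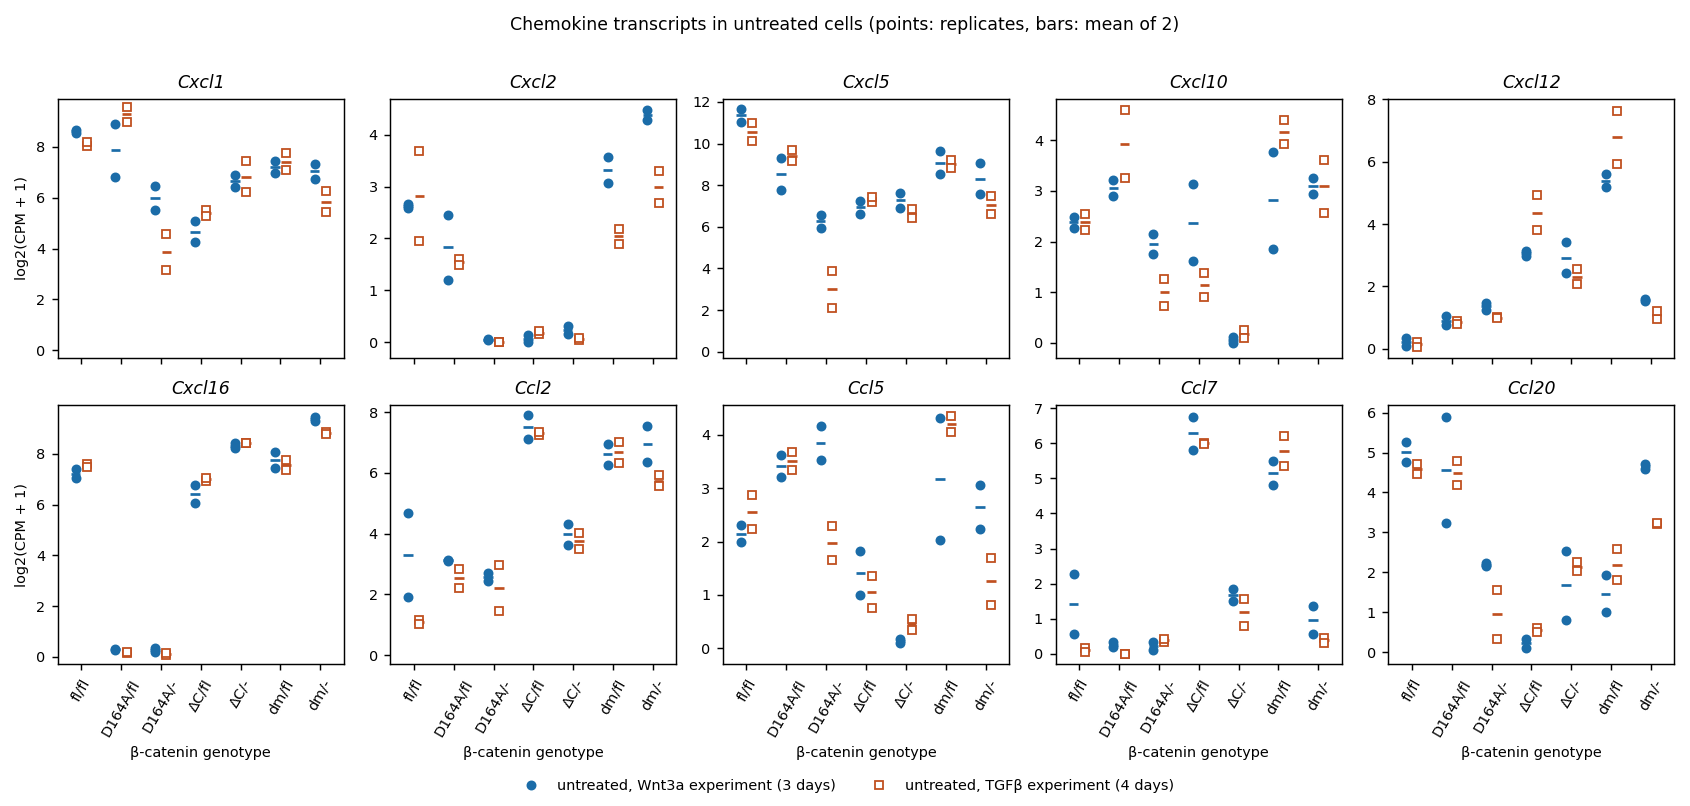
Levels of the 10 chemokines in untreated cells of the 7 β-catenin genotypes (x axis) as log2(CPM + 1) (y axis), with a point for each replicate and a bar for the mean of 2 replicates in each experiment. Cxcl16 was near 0 in D164A/fl and D164A/- cells, Cxcl5 was highest in fl/fl cells, and Ccl7 stood high in ΔC/fl and dm/fl cells.

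Cxcl1, Cxcl2 and Cxcl5 carry the ELR motif and attract neutrophils through the receptor Cxcr2. Cxcl5 ranged from 1126 to 3270.3 CPM in the 4 untreated fl/fl samples, above every untreated sample of the other lines, of which the highest was D164A/fl with 828 CPM. It was lowest in D164A/- cells, at 61.6 and 93.2 CPM in the Wnt3a experiment and at 3.36 and 13.7 CPM in the TGFβ experiment. Its log2 fold change against fl/fl was -5.10 and -7.57 there (SE 0.65, limma adjusted p = 1.90e-07 and 3.30e-11). It was also lower than in fl/fl in both experiments in ΔC/fl (-4.42 and -3.27), ΔC/- (-4.10 and -3.94) and dm/- cells (-3.05 and -3.53). In D164A/fl and dm/fl cells it was called lower in the Wnt3a experiment alone (-2.81 and -2.27). Both calls were lost without the replicates that stood apart (-2.04 and -1.73). Fold changes of these lines against fl/fl also followed the GC content of genes in that experiment (Spearman's rho = 0.47 and 0.65). In the TGFβ experiment rho was -0.25 and -0.12. Cxcl5 had the lowest GC content of the members (0.378), and the part of this trend in the 2 calls was not tested.

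Cxcl1 ranged from 259.8 to 407 CPM in untreated fl/fl cells and from 112 to 759 CPM in D164A/fl cells, and these ranges overlapped. It was between 7.91 and 86.5 CPM in D164A/- and between 18.0 and 44.8 CPM in ΔC/fl cells. All samples of both lines lay below those of fl/fl, with log2 fold changes of -2.62 and -4.24 in D164A/- and -3.94 and -2.71 in ΔC/fl cells (Wnt3a and TGFβ experiment, SE 0.56). The untreated ΔC/- (73.8 to 173 CPM), dm/fl (124 to 212 CPM) and dm/- samples (42.0 to 159.5 CPM) also lay below the fl/fl range. Cxcl1 was called lower than in fl/fl in both experiments in 3 of 6 mutant lines. Cxcl2 was a low transcript with a wide spread between lines. Its range was 2.84 to 11.8 CPM in fl/fl, and 5.45 to 21.1 CPM in dm/- cells, whereas no untreated sample of D164A/-, ΔC/fl or ΔC/- cells exceeded 0.243 CPM. In these 3 lines Cxcl2 was lower than in fl/fl in both experiments, with log2 fold changes from -2.81 to -2.39.

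Ccl20, the ligand of Ccr6, which attracts dendritic cells and lymphocytes, was high in fl/fl, D164A/fl and dm/- cells. It ranged from 21.0 to 37.3 CPM in fl/fl, from 8.36 to 58.7 CPM in D164A/fl and from 8.19 to 25.4 CPM in dm/- cells, and these 3 ranges overlapped. It was at most 4.97 CPM in the other 4 lines and at most 0.520 CPM in ΔC/fl cells. In these 4 lines Ccl20 was lower than in fl/fl in both experiments, from -2.39 in dm/fl to -4.79 in ΔC/fl cells (SE 0.57). In dm/fl cells of the Wnt3a experiment it was -3.55, and -4.01 without replicate 1.

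Cxcl16, a chemokine made as a membrane protein and shed as a ligand of Cxcr6, was the member with the sharpest boundary between lines. It was between 0.0386 and 0.330 CPM in all 16 samples of D164A/fl and D164A/- cells and between 43.9 and 741 CPM in the other 40 samples. The log2 fold changes of the untreated D164A lines against fl/fl were -7.38 and -7.44 in the TGFβ experiment (SE 0.26, limma adjusted p = 9.47e-21 and 7.55e-21) and -6.93 and -6.97 in the Wnt3a experiment, where the first was -6.92 without replicate 2 of D164A/fl cells. Cxcl16 was thus low in the D164A lines with the floxed allele and without it. Cxcl16 lies at chr11:70454389-70459984. Its neighbour Zmynd15, which overlaps it at chr11:70459433-70466204, was between 0.0339 and 0.354 CPM in the D164A samples and between 0.294 and 11.03 CPM elsewhere. The genes Med11 and Psmb6 on its sides were not at such low levels, with 10.5 to 33.1 CPM and 94.2 to 207 CPM in the D164A samples and 9.34 to 44.8 CPM and 66.8 to 408 CPM in the others. At the other end, Cxcl16 was highest in dm/- cells, at 635, 704, 463 and 435 CPM, with log2 fold changes against fl/fl of 2.16 and 1.27.

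Ccl2 and Ccl7 are neighbouring genes of chromosome 11 (chr11:82035577-82037452 and chr11:82045712-82047525) whose products attract monocytes through Ccr2. Ccl7 ranged from 55.2 to 107 CPM in untreated ΔC/fl cells and from 26.9 to 73.6 CPM in dm/fl cells, and it did not exceed 3.83 CPM in any untreated sample of the other 5 lines. Against fl/fl, its log2 fold change was 4.87 and 5.90 in ΔC/fl cells and 3.73 and 5.68 in dm/fl cells (Wnt3a and TGFβ experiment, SE 0.44, limma adjusted p at most 6.25e-08). Without replicate 1 of dm/fl cells the value of 3.73 was 4.08. Ccl2 was high in the same lines and in dm/- cells besides. It ranged from 138 to 236 CPM in ΔC/fl, from 75.5 to 129.6 CPM in dm/fl and from 46.5 to 186 CPM in dm/- cells, and from 1.05 to 24.7 CPM in fl/fl cells, where replicate 2 of the Wnt3a experiment stood at 24.7 CPM and the other 3 at 1.05 to 2.81 CPM. Its log2 fold changes against fl/fl lay between 3.30 and 6.19 in these 3 lines (SE 0.63), and the value for dm/fl cells in the Wnt3a experiment was 2.95 without replicate 1 (limma adjusted p = 0.00785). The lines with the highest Ccl7 were also those with the highest sums of fibroblast markers, and the part of other cells in this was not tested. In these bulk samples, fewer cells of a kind and less RNA per cell cannot be told apart.

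Cxcl12, the ligand of Cxcr4, is made by stromal cells in most tissues. It was between 0.0374 and 0.268 CPM in untreated fl/fl cells and between 35.8 and 199 CPM in dm/fl cells, with ΔC/fl (6.81 to 29.5 CPM) and ΔC/- cells (3.18 to 9.69 CPM) in between. The log2 fold changes against fl/fl were 5.18 and 6.65 in dm/fl, 2.84 and 4.23 in ΔC/fl and 2.70 and 2.18 in ΔC/- cells (Wnt3a and TGFβ experiment, SE 0.53), with 5.38 in place of 5.18 without replicate 1 of dm/fl cells. Cxcl10 and Ccl5, which attract T cells and belong to the interferon response, were nearly silent in ΔC/- cells. There Cxcl10 did not exceed 0.194 CPM and Ccl5 did not exceed 0.472 CPM in any untreated sample, compared with 3.70 to 4.83 CPM and 2.95 to 6.33 CPM in fl/fl cells. Both were lower than in fl/fl in both experiments (Cxcl10 -2.33 and -2.22, Ccl5 -2.01 and -2.10). The Cxcl10 calls were lost without single fl/fl replicates, namely replicate 1 of the Wnt3a experiment (-2.22, limma adjusted p = 0.0538) or replicate 2 of the TGFβ experiment (-2.06, 0.0596).

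Removing the floxed allele went along with other levels of the same chemokines. Untreated cells with a deleted second allele were compared with those of the same mutation and a floxed allele. Members were differentially expressed in 30 of 60 comparisons (7 higher, 23 lower), beside 12.1% of all gene-by-line comparisons (5.3% higher, 6.78% lower), and 10 of 30 combinations had the same call in both experiments (2 higher, 8 lower), beside 6.23% over all genes (2.38% higher, 3.85% lower). Ccl7 was lower in ΔC/- than in ΔC/fl cells (-4.60 and -4.82) and lower in dm/- than in dm/fl cells (-4.18 and -5.40). Ccl2 was lower in ΔC/- than in ΔC/fl cells (-3.53 and -3.54). In the ΔC lines the fibroblast marker sum moved with both genes, from 107 to 745 CPM in untreated ΔC/fl to 8.29 to 9.98 CPM in untreated ΔC/- cells. Its part in these differences was not tested. In dm/- against dm/fl cells Ccl2 was called in neither experiment, with overlapping untreated ranges of 46.5 to 186 CPM and 75.5 to 129.6 CPM. Cxcl12 was lower in dm/- than in dm/fl cells (-3.83 and -5.70). The fibroblast marker sum was also lower there, with 6.56 to 11.05 CPM in untreated dm/- cells and 125 to 537 CPM in untreated dm/fl cells. Cxcl16 moved the other way and was higher in ΔC/- (1.89 and 1.44) and dm/- cells (1.62 and 1.26), each value for the Wnt3a and then the TGFβ experiment. Without replicate 1 of dm/fl cells, the values of dm/- cells in the Wnt3a experiment were -4.52 for Ccl7, -4.02 for Cxcl12 and 1.93 for Cxcl16. In D164A/- against D164A/fl cells, Cxcl1 (-5.41), Cxcl2 (-1.55), Cxcl5 (-6.42), Cxcl10 (-2.93), Ccl5 (-1.52) and Ccl20 (-3.55) were lower in the TGFβ experiment. In the Wnt3a experiment Cxcl1 (-1.87), Cxcl2 (-1.77), Cxcl5 (-2.29) and Ccl20 (-2.37) were lower too, but these calls were lost without replicate 1 of D164A/fl cells (-0.83, -1.14, -1.53 and -1.04), which left replicate 2, the sample that resembled D164A/- cells. Without replicate 2 in its place they were -2.91, -2.40, -3.06 and -3.71, and all were called. The Ccl5 call was lost without replicate 1 of D164A/- cells (-1.20, limma adjusted p = 0.216).

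TGFβ lowered several chemokines and raised others, and which of them changed differed between lines. Members were differentially expressed in 22 of 70 comparisons of treated with untreated cells, 17 lower and 5 higher. Over all genes, 6.35% of the comparisons were called, 3.24% lower and 3.11% higher. By line, 7 members were lower in dm/fl cells, where 6.88% of all genes were lower, 3 each in fl/fl (2.94%) and D164A/fl (0.88%), 2 each in D164A/- (1.36%) and dm/- (2.44%), and 0 in ΔC/fl (4.49%) and ΔC/- cells (3.69%). The median log2 fold change of the 10 members was -2.20 in dm/fl and -1.03 in D164A/fl cells and lay between -0.52 and -0.08 in the other lines, beside medians of -0.03 to 0.03 for all genes. The 2 treated replicates both lay below the 2 untreated ones in 38 of 70 comparisons of members and above them in 13, beside 28.5% and 28.7% over all genes. Some of the 38 rest on few reads, such as Ccl7 in fl/fl cells, which was not above the detection level of 3 reads without TGFβ. With edgeR on the recovered reads 21 comparisons of members were called, and 11 of the 22 calls held under all of the alternative settings.

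**Figure D2:**
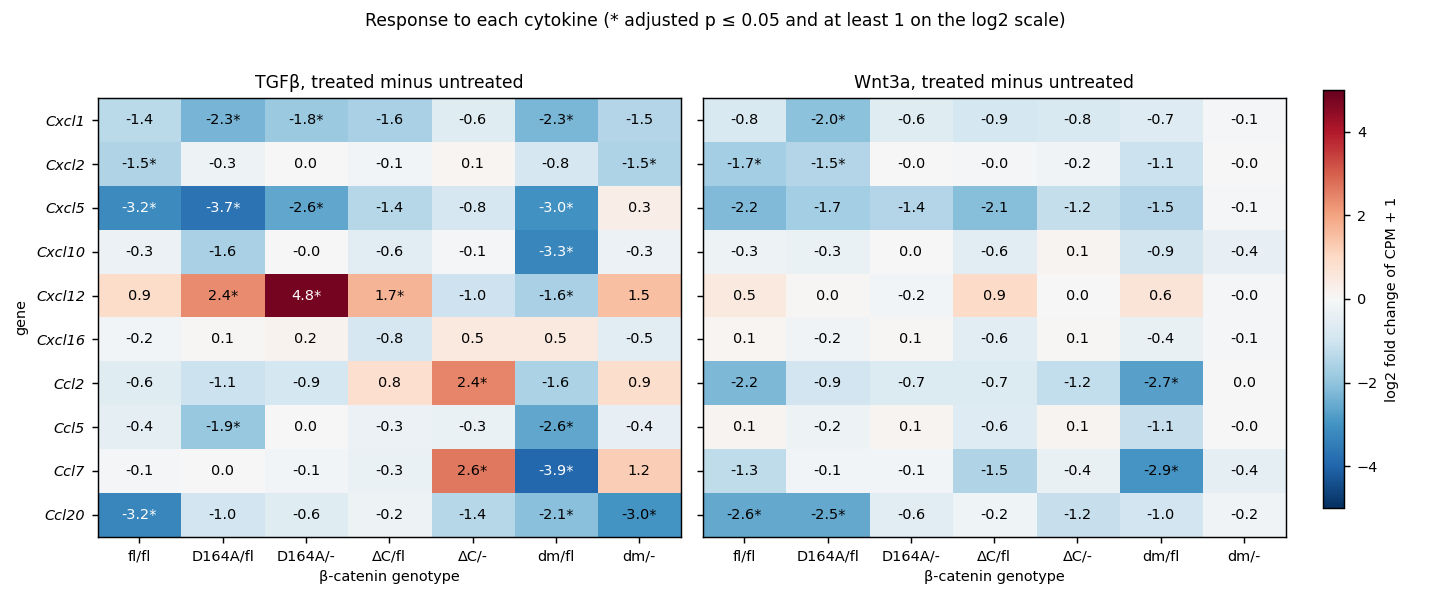
Log2 fold change (treated minus untreated, on log2(CPM + 1)) of each chemokine (rows) in each β-catenin genotype (columns) for TGFβ and for Wnt3a, with an asterisk where the change was called differentially expressed. TGFβ gave both decreases and increases, with Cxcl12 higher by 4.79 in D164A/- cells and Ccl7 lower by 3.92 in dm/fl cells, whereas all 7 calls with Wnt3a were decreases.

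The neutrophil attractants were lower with TGFβ in several lines. In fl/fl cells Cxcl5 fell from 1126 and 2054 CPM to 170.4 and 166 CPM, a log2 fold change of -3.17 (SE 0.65, limma adjusted p = 0.000975), or 9.46-fold lower by the means. In D164A/fl cells it fell from 828 and 569 CPM to 44.8 and 61.1 CPM (-3.69, limma adjusted p = 0.000356, 13.2-fold lower). In dm/fl cells it fell from 592 and 451 CPM to 66.9 and 59.3 CPM (-3.02, limma adjusted p = 0.0011). In all 3 lines the treated replicates were close together and far below the untreated ones, and these calls held without each of the samples in turn. In D164A/- cells Cxcl5 was already low, at 3.36 and 13.7 CPM, and fell to 0.309 and 0.330 CPM (-2.60, limma adjusted p = 0.0108). That call was lost without untreated replicate 2 (-1.72, limma adjusted p = 0.387) and without either treated replicate. In ΔC/- cells the treated replicates stood at 151 and 19.0 CPM around untreated values of 115 and 84.0 CPM, and in dm/- cells treated values of 218 and 123 CPM overlapped untreated ones of 178 and 95.9 CPM.

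Cxcl1, Cxcl10 and Ccl20 had a negative fold change with TGFβ in 7 of 7 lines, which was so for 5.69% of all genes tested. With the trend with GC content removed it was so for Cxcl1 and Ccl20 but not for Cxcl10. For Cxcl1, treated replicates lay below the untreated ones in 6 lines, the exception being ΔC/- cells. Cxcl1 was called in 3 lines. Its level in dm/fl cells went from 212 and 136 CPM to 34.8 and 33.0 CPM (-2.29, SE 0.56, limma adjusted p = 0.00348), in D164A/fl cells from 759 and 508 CPM to 78.0 and 195 CPM (-2.32, 0.00877), and in D164A/- cells from 7.91 and 23.1 CPM to 2.56 and 3.70 CPM (-1.84, 0.0458). Each call was lost without 1 sample, in dm/fl cells without untreated replicate 1 (-1.97, limma adjusted p = 0.083), in D164A/fl cells without replicate 1 of the treated cells (-1.67, 0.265) or of the untreated cells (-2.03, 0.189), and in D164A/- cells without untreated replicate 2 (-1.12, 0.714) or without either treated replicate. Cxcl2 was called lower in fl/fl (-1.50, SE 0.36, 0.00529) and dm/- cells (-1.54, 0.0047). It went from 11.8 and 2.84 CPM to 1.15 and 1.88 CPM in fl/fl cells, and without untreated replicate 1, the sample at 11.8 CPM, the value was -0.63 (limma adjusted p = 0.604), and without treated replicate 1 it was -1.29 (0.109). It went from 8.89 and 5.45 CPM to 2.69 and 1.06 CPM in dm/- cells, and the value was -1.23 (limma adjusted p = 0.127) without untreated replicate 1 and -1.11 (0.177) without treated replicate 2.

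Ccl20 was also lower in each line with TGFβ by the sign of its fold change, and called in 3. In fl/fl cells it went from 21.0 and 25.2 CPM to 1.91 and 1.21 CPM, 14.8-fold lower (-3.24, SE 0.57, limma adjusted p = 0.000137). In dm/- cells it went from 8.19 and 8.45 CPM to 0.189 and 0.165 CPM, 46.9-fold lower (-2.98, limma adjusted p = 0.000525). Both calls held without each sample in turn. In dm/fl cells it went from 4.97 and 2.52 CPM to 0.0623 and 0.0657 CPM, which are below the detection level of 3 reads (-2.11, limma adjusted p = 0.01), and the call was lost without untreated replicate 1 (-1.72, 0.174) or without either treated replicate. In D164A/fl cells treated values of 6.16 and 17.8 CPM overlapped untreated values of 17.4 and 26.9 CPM.

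**Figure D3:**
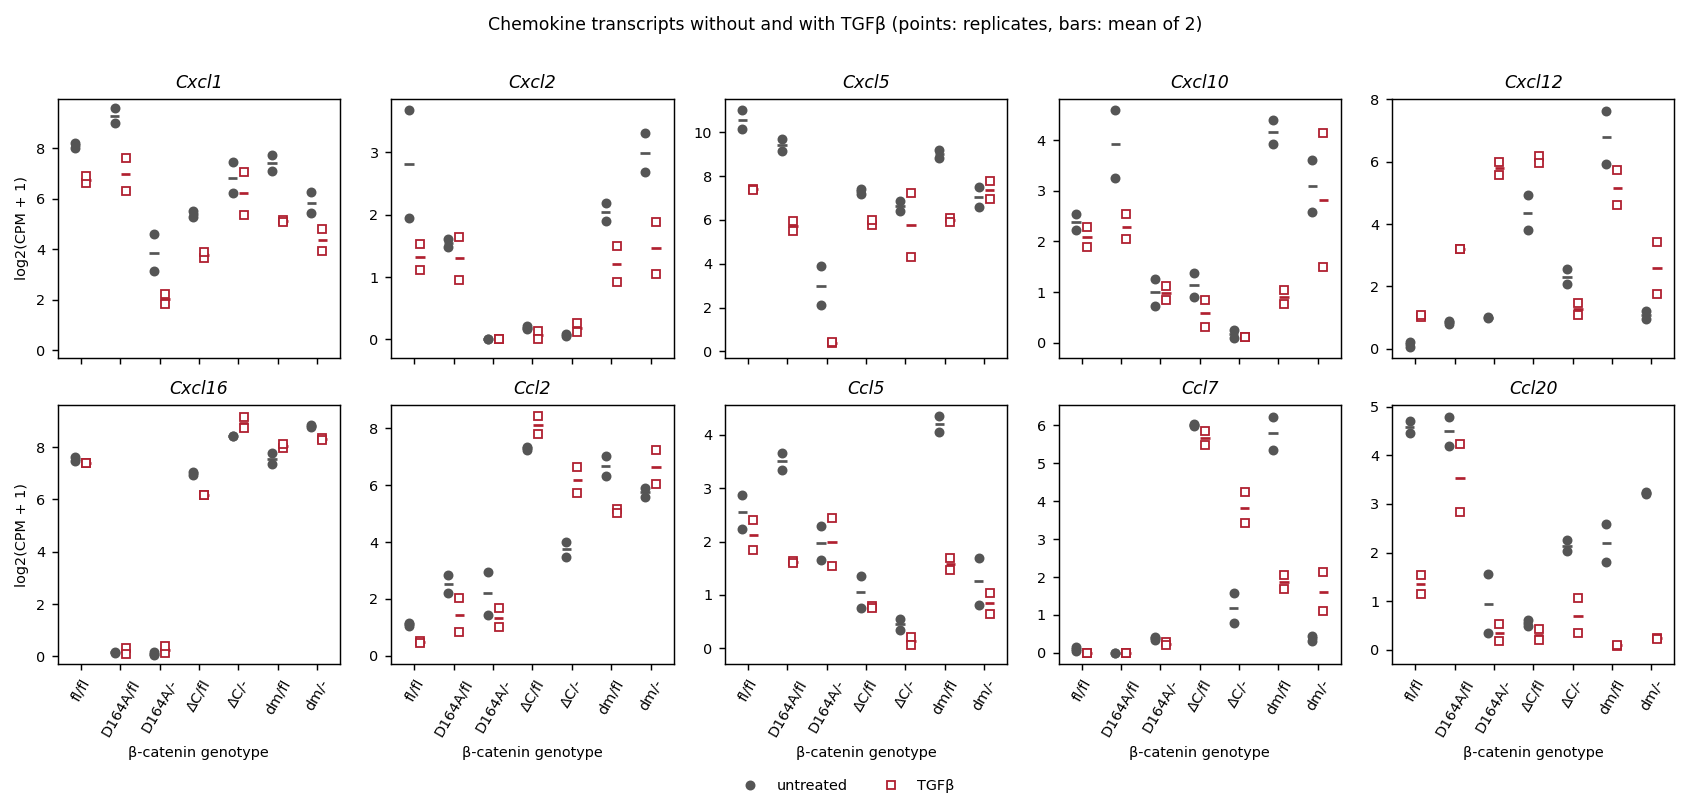
Levels of the 10 chemokines in the TGFβ experiment as log2(CPM + 1) (y axis) in the 7 genotypes (x axis), untreated and with TGFβ at 2 ng/ml for 4 days, with a point for each replicate and a bar for the mean of 2. Cxcl12 rises in D164A/- cells from 1.00 and 0.990 CPM to 62.4 and 47.1 CPM, and Ccl20 falls in fl/fl and dm/- cells.

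With TGFβ, treated Cxcl12 lay above untreated Cxcl12 in 5 of 7 lines, and it was called higher in the D164A lines and in ΔC/fl cells. In D164A/- cells it went from 1.00 and 0.990 CPM to 62.4 and 47.1 CPM, 54.9-fold higher (4.79, SE 0.53, limma adjusted p = 1.02e-07), and this call held without each sample in turn. In D164A/fl cells it went from 0.849 and 0.740 CPM to 8.13 and 8.19 CPM (2.35, limma adjusted p = 0.00541). In ΔC/fl cells it went from 29.5 and 12.9 CPM to 71.2 and 61.5 CPM (1.71, limma adjusted p = 0.0354). In dm/fl cells it went the other way, from 199 and 59.9 CPM to 52.4 and 23.3 CPM (-1.61, limma adjusted p = 0.0403). In the 2 remaining lines of the 5 the change did not pass by limma but was called by edgeR. Cxcl12 in fl/fl cells went from 0.161 and 0.0374 CPM, at most 4 reads, to 1.02 and 1.10 CPM (0.91, limma adjusted p = 0.534, edgeR adjusted p = 0.0336). In dm/- cells it went from 0.947 and 1.31 CPM to 2.39 and 9.82 CPM (1.51, limma adjusted p = 0.0817, edgeR adjusted p = 0.0423). With edgeR the calls in ΔC/fl (adjusted p = 0.189) and dm/fl cells (0.122) were lost. The 3 limma calls outside D164A/- cells were each lost without single samples, in D164A/fl cells without untreated replicate 1 (2.40, limma adjusted p = 0.0617) or either treated replicate, in ΔC/fl cells without untreated replicate 2 (1.14, 0.466) or either treated replicate, and in dm/fl cells without untreated replicate 1 (-0.76, 0.773) or treated replicate 2 (-1.05, 0.522). The sum of the fibroblast markers was 105 and 95.0 CPM in untreated and 146 and 90.6 CPM in treated D164A/- cells, and 537 and 315 CPM in untreated and 130.1 and 102 CPM in treated dm/fl cells. Their part in the Cxcl12 changes was not tested.

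Ccl7 and Ccl2 moved in opposite directions in different lines. In dm/fl cells Ccl7 went from 73.6 and 39.8 CPM to 3.116 and 2.24 CPM with TGFβ, 21.2-fold lower (-3.92, SE 0.44, limma adjusted p = 4.06e-08), beside the lower fibroblast marker sum given above. In ΔC/- cells it went from 1.98 and 0.724 CPM to 17.9 and 9.64 CPM, 10.2-fold higher (2.65, limma adjusted p = 7.97e-05). The fibroblast marker sum went from 9.98 and 9.50 CPM to 26.3 and 25.8 CPM there. Over all samples of this line Pdgfra reached 17.3 CPM and Col1a1 12.7 CPM, while Pdgfrb, Dcn and Lum did not exceed 0.193 CPM. The part of this sum in the Ccl7 change was not tested. The Ccl7 calls held without each sample in turn. Ccl2 in ΔC/- cells went from 15.2 and 10.2 CPM to 100.0 and 52.0 CPM, 5.98-fold higher (2.44, SE 0.63, limma adjusted p = 0.00944), and this call was lost without treated replicate 1 (1.98, 0.151) or untreated replicate 2 (2.17, 0.122). Ccl2 in dm/fl cells went from 129.6 and 79.7 CPM to 35.3 and 31.7 CPM, and its groups did not overlap, but its log2 fold change of -1.58 did not pass (limma adjusted p = 0.11). In ΔC/fl cells, where both genes were highest, treated Ccl2 was at 342 and 224 CPM and untreated at 149.6 and 163 CPM (0.82, 0.609).

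Cxcl10 and Ccl5 were lower with TGFβ in dm/fl cells. Cxcl10 went from 20.2 and 14.3 CPM to 1.06 and 0.690 CPM, 19.7-fold lower (-3.27, SE 0.63, limma adjusted p = 0.000241). Ccl5 went from 19.3 and 15.6 CPM to 1.78 and 2.24 CPM, 8.70-fold lower (-2.62, SE 0.48, limma adjusted p = 0.000131). Both calls held without each sample in turn. Ccl5 was also called lower in D164A/fl cells, from 9.09 and 11.7 CPM to 2.12 and 2.02 CPM (-1.88, limma adjusted p = 0.0148), a call that was lost without each of its 4 samples (limma adjusted p = 0.0796 to 0.134). Interferon response genes were lower mainly in dm/fl cells as well and, by their median, also in D164A/fl cells. Of 14 tested, 11 were lower in dm/fl cells (6.88% of all genes), with a median log2 fold change of -2.20. Among them were Ifit3 (-4.65), Irf7 (-4.63), Ifit1 (-4.06) and Rsad2 (-3.21). In D164A/fl cells 3 were lower (0.88% of all genes), with a median of -1.54. The median lay between -0.32 and 0.21 in the other lines. There 2 were lower in ΔC/- (3.69% of all genes), 1 each in fl/fl (2.94%) and ΔC/fl cells (4.49%), and 0 in D164A/- and dm/- cells. In every line 0 were higher.

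Cxcl16 was called in none of the lines with TGFβ, with log2 fold changes between -0.82 and 0.50. The largest decrease was in ΔC/fl cells, from 121 and 133 CPM to 70.8 and 71.7 CPM (-0.82, SE 0.26, limma adjusted p = 0.0334), which is under the 1 log2 unit required. In ΔC/- cells it was 344 and 346 CPM without and 421 and 567 CPM with TGFβ.

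Whether the lines responded differently to TGFβ was tested as the difference between their log2 fold changes. Members passed in 15 of 90 such tests (11 higher, 4 lower), beside 3.49% over all genes (1.86% higher, 1.63% lower), and 32 had an unadjusted p below 0.05. The tests against fl/fl share its 4 samples. Ccl7 differed most. Its response in dm/- cells was 5.15 above that in dm/fl cells (SE 0.62, limma adjusted p = 5.01e-07), that in dm/fl cells was 3.81 below that in fl/fl cells (-3.81, 8.66e-05), and that in ΔC/- cells was 2.98 above that in ΔC/fl cells (0.00338). The Cxcl12 response of D164A/- cells was 3.88 above that of fl/fl cells (SE 0.74, limma adjusted p = 0.000979). Untreated Cxcl12 did not exceed 0.268 CPM in fl/fl cells, so log2(CPM + 1) understates its rise there, and part of this difference comes from the scale. In fl/fl cells Ccl7 was at 0.121 and 0.0374 CPM untreated and at 0 treated, and in dm/- cells its untreated mean was 0.307 CPM. It had almost no room to fall there, so the difference between dm/fl and fl/fl cells restates the fall in dm/fl cells. These 4 differences held without each sample in turn, while the other 11 were lost on leaving out single samples. The count was 9 without untreated replicate 1 or treated replicate 2 of dm/fl cells, and 5 with edgeR.

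Wnt3a gave fewer and only negative calls. Members were differentially expressed in 7 of 70 comparisons, all lower, beside 0.862% of all comparisons (0.559% higher, 0.303% lower), and 18 of the 70 had an unadjusted p below 0.05. They were Cxcl2 and Ccl20 in fl/fl cells, Cxcl1, Cxcl2 and Ccl20 in D164A/fl cells, and Ccl2 and Ccl7 in dm/fl cells. In D164A/fl cells 1.3% of all genes were lower, in fl/fl cells 0.225% and in dm/fl cells 0.233%. With edgeR 2 of the 70 were called, and 4 after a trend of the fold changes with GC content was removed. Moreover, 0 of the 7 calls held under all of the alternative settings. The count was 7 without replicate 2 of untreated D164A/fl cells, 6 without replicate 1 of untreated dm/fl cells, and 4 without untreated replicate 1 or treated replicate 2 of D164A/fl cells. Treated replicates both lay below the untreated ones in 33 of 70 comparisons and above them in 2, beside 12.3% and 12.6% over all genes. Some of the 33 rest on few reads. Such were Cxcl16 in D164A/fl cells (mean 0.226 CPM untreated and 0.0853 CPM treated) and Ccl20 in ΔC/fl cells (0.173 and 0 CPM). Cxcl1, Cxcl2, Cxcl5, Ccl7 and Ccl20 had a negative fold change in 7 of 7 lines, which was so for 1.24% of all genes tested, although most of these fold changes were small or not called. With the GC trend removed this held for Ccl20 alone, and Cxcl1 and Cxcl5 were negative in 6 lines, Ccl7 in 5 and Cxcl2 in 4.

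In fl/fl cells, Cxcl2 went from 5.36 and 5.02 CPM to 0.899 and 0.902 CPM with Wnt3a (-1.70, SE 0.36, limma adjusted p = 0.0155). Ccl20 went from 26.3 and 37.3 CPM to 4.21 and 4.64 CPM, 7.19-fold lower (-2.58, SE 0.57, limma adjusted p = 0.0252). For both the treated replicates were nearly equal and below the untreated ones, yet both calls were lost without either untreated replicate or without treated replicate 1 (Cxcl2 -1.66 to -1.74, limma adjusted p = 0.124 to 0.193, and Ccl20 -2.33 to -2.82, 0.0796 to 0.427). Cxcl5, the highest member in these cells, went from 2112 and 3270.3 CPM to 364 and 909 CPM, 4.23-fold lower by the means. Its log2 fold change of -2.19 did not pass (SE 0.65, limma adjusted p = 0.169). Over the 7 lines Cxcl5 fold changes lay between -2.19 and -0.06, its treated replicates were below the untreated ones in 6 lines, and none was called. The fold changes of fl/fl cells with Wnt3a followed the GC content of genes, and with that trend removed they were -0.85 for Cxcl2 (limma adjusted p = 0.596), -0.93 for Ccl20 (0.648) and -0.23 for Cxcl5 (0.941), so that neither call held.

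In D164A/fl cells, the untreated replicates of the Wnt3a experiment differed widely, so that the size of each response rested on replicate 1. Cxcl1 was 479 and 112 CPM untreated and 64.6 and 48.1 CPM treated (-2.04, SE 0.56, limma adjusted p = 0.0208), and the value was -0.999 (0.604) without untreated replicate 1 and -3.08 (0.000995) without untreated replicate 2. Ccl20 was 58.7 and 8.36 CPM untreated and 4.84 and 1.82 CPM treated (-2.54, limma adjusted p = 0.00349), and -1.20 (0.417) without untreated replicate 1. Cxcl2 was 4.49 and 1.30 CPM untreated and 0.392 and 0.210 CPM treated (-1.45, limma adjusted p = 0.00931), and -0.82 (0.438) without that sample. The 3 calls were also lost without treated replicate 2 (-1.35 to -2.02, limma adjusted p = 0.122 to 0.232). Without untreated replicate 2 the values of Ccl20 and Cxcl2 were -3.88 and -2.08. With the GC trend removed Cxcl2 was not called (-1.34, limma adjusted p = 0.189). In each case the treated values were below both untreated ones.

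**Figure D4:**
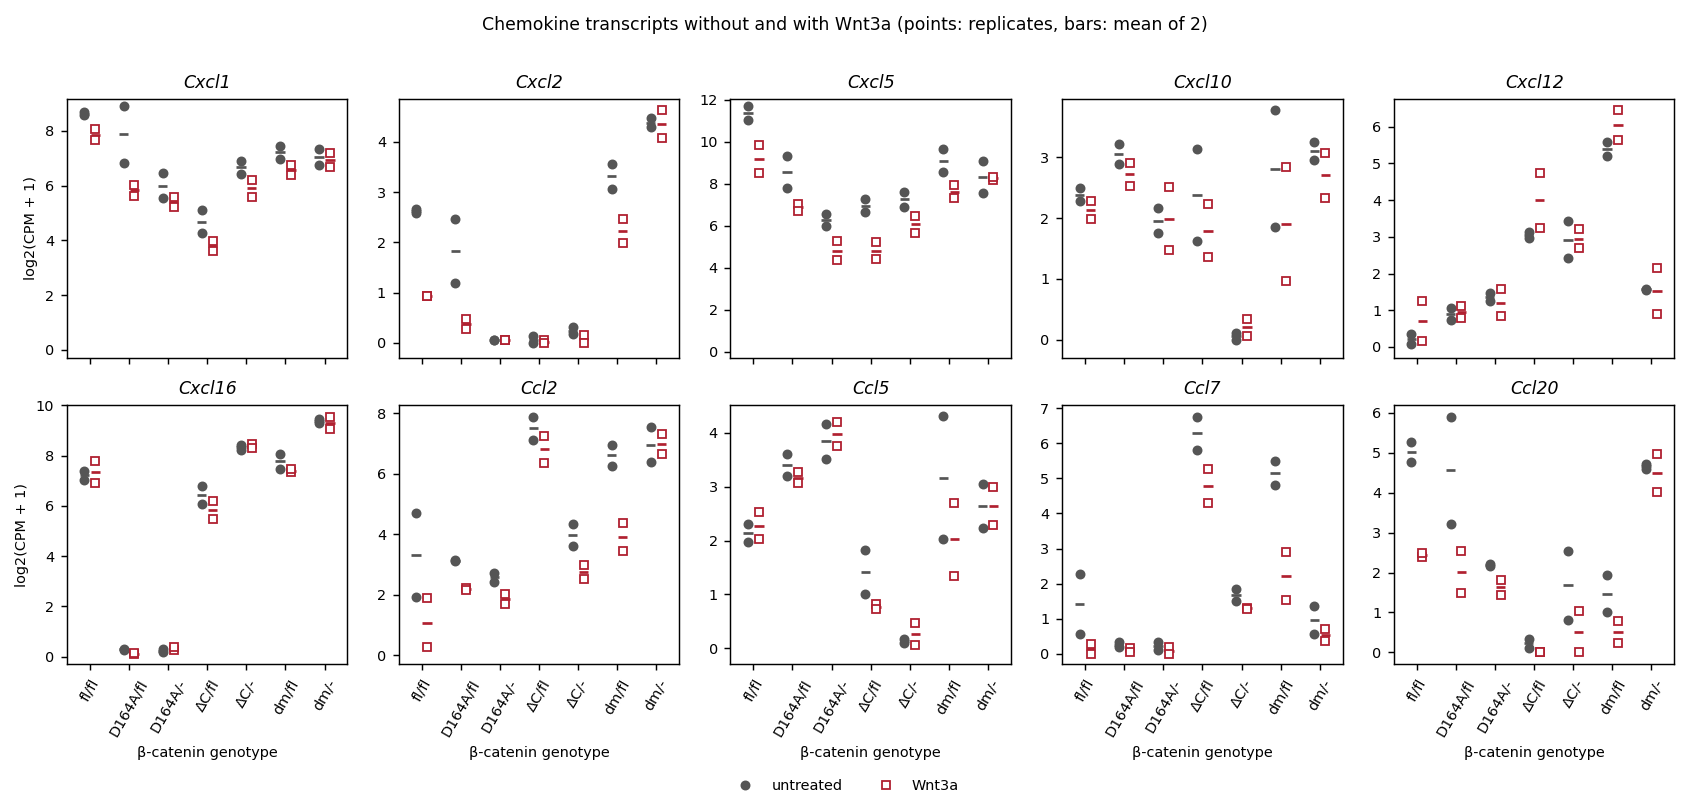
Levels of the 10 chemokines in the Wnt3a experiment as log2(CPM + 1) (y axis) in the 7 genotypes (x axis), untreated and with Wnt3a at 100 ng/ml for 3 days, with a point for each replicate and a bar for the mean of 2. In fl/fl cells Ccl20 falls to 4.21 and 4.64 CPM, in dm/- cells the members stay near their untreated levels, and the untreated D164A/fl replicates lie far apart for Cxcl1 and Ccl20.

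In dm/fl cells, Ccl7 went from 26.9 and 44.1 CPM to 6.42 and 1.91 CPM with Wnt3a, 8.51-fold lower (-2.93, SE 0.44, limma adjusted p = 0.000158), and this was the only one of the 7 calls that held without each of its samples in turn (-3.28 without untreated replicate 1). Ccl2 went from 124 and 75.5 CPM to 19.6 and 9.90 CPM, 6.76-fold lower (-2.71, SE 0.63, limma adjusted p = 0.0281). With edgeR neither change was called (adjusted p = 0.16 for Ccl7 and 0.181 for Ccl2). With the GC trend removed both were called (-3.87 and -3.60, limma adjusted p = 0.000319 and 0.0144). The untreated dm/fl replicates correlated with r = 0.83, the lowest value among the 28 conditions. Without untreated replicate 1, the sample nearest to ΔC/fl cells, the Ccl2 value was -2.35 (limma adjusted p = 0.456), and without treated replicate 2 it was -2.25 (0.304). The fibroblast marker sum of dm/fl cells was 229 and 125 CPM untreated and 144 and 45.6 CPM with Wnt3a, and its part in these changes was not tested. In ΔC/fl cells, the line with the highest Ccl7, it went from 55.2 and 107 CPM to 18.6 and 37.1 CPM without overlap (-1.51, limma adjusted p = 0.263). In dm/- cells, where Axin2 did not rise, 0 genes of the 13754 were called with Wnt3a, and the members' log2 fold changes lay between -0.43 (Ccl7) and 0.01 (Ccl2).

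No difference in the Wnt3a response between lines passed for any member. The count was 0 of 90 tests by limma and 0 by edgeR, beside 0.414% over all genes (0.214% higher, 0.2% lower), and 15 of the 90 had an unadjusted p below 0.05. The smallest p was that for Ccl7, whose response in dm/- cells was 2.50 above that in dm/fl cells (SE 0.62, limma adjusted p = 0.204). The count was 4 without replicate 2 of untreated dm/fl cells, 2 without replicate 2 of untreated D164A/fl cells and 1 without treated replicate 1 of dm/fl cells.

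The untreated cells of both experiments, cultured for 4 and for 3 days, were also compared. Members differed in 4 of 70 comparisons, all lower in the TGFβ experiment, beside 2.31% over all genes (1.15% higher, 1.16% lower). In D164A/- cells Cxcl5 (-3.26, SE 0.65, limma adjusted p = 0.00385), Cxcl1 (-2.12, 0.0432) and Ccl5 (-1.87, 0.0378) were lower, and in dm/fl cells Cxcl2 (-1.27, 0.0471), whose value was -1.02 (0.294) without replicate 1 of the Wnt3a experiment. The count was 0 without untreated replicate 2 of D164A/- cells in the Wnt3a experiment or replicate 1 in the TGFβ experiment.

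Some members followed each other across the 56 samples. Pearson's r of log2(CPM + 1), given as a description over samples that share lines and experiments, was 0.85 for Cxcl1 and Cxcl5, 0.77 for Ccl2 and Ccl7, 0.75 for Cxcl1 and Ccl20 and 0.71 for Cxcl10 and Ccl5. It was -0.56 for Cxcl12 and Ccl20. Of all tested genes, the pattern most like that of Cxcl1 was Csf3 (r = 0.79), which codes for the growth factor of neutrophils, followed by Psd4 (0.76) and Gch1 (0.73). Cxcl2 was nearest to Gjb2 (0.88), Ripor2 (0.87) and Mettl7b (0.80), and Cxcl5 to Bst1 (0.78), Cldn1 (0.74) and Map3k8 (0.73). Ccl20 was nearest to Rpia (0.81), Sowahb (0.76) and Slc7a11 (0.75). The 3 genes nearest to Ccl5 were the interferon-stimulated genes Oasl1 (0.87), Cmpk2 (0.80) and Isg15 (0.80), and those nearest to Cxcl10 were Ube2l6 (0.79), Rnf113a1 (0.76) and Zbp1 (0.75). Cxcl12 was nearest to the matrix gene Fbn1 (0.83) and to Ces1g (0.83) and Bnc2 (0.81). Ccl7 was nearest to C1qtnf6 (0.92), Foxd1 (0.92) and Agpat4 (0.91), and Ccl2 to Gnao1 (0.87), Meis3 (0.86) and Amigo2 (0.85). Cxcl16, with its split into D164A and other lines, was nearest to Disp1, Hexa and Tbcel (0.96 each).

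Other genes of the chemokine system were mostly too low to test. Of 28 other chemokine genes 10 were tested. With TGFβ, Cxcl3, a further ELR chemokine, was lower in fl/fl (-2.29) and dm/fl cells (-2.40), and Cxcl11 was higher in dm/- cells (1.06). With Wnt3a, Cxcl3 was lower in the same lines (-2.14 and -1.72), where 0.225% and 0.233% of all genes were lower. Fold changes with Wnt3a followed GC content in both lines (Spearman's rho = 0.74 and -0.75). The calls of Cxcl3 and Cxcl11 were the only ones among the 10 in either experiment. Values in this paragraph are those of the main fit alone. Of 23 chemokine receptor genes 4 were tested, so that the lines had little transcript for most receptors. With TGFβ, Ccrl2, which presents chemerin to other cells, was lower in D164A/- (-2.64), dm/fl (-1.57) and fl/fl cells (-1.19), Cxcr3 was lower in dm/fl cells (-1.53), Cxcr6 was higher in ΔC/fl cells (1.08), and Ackr3, a scavenger of Cxcl12, was higher in dm/- cells (3.25). With Wnt3a, Cxcr6 was higher in ΔC/fl cells (1.87), and in D164A/fl cells Ackr3 was higher (2.29) and Ccrl2 lower (-1.46). Of 6 tested genes of chemokine processing and mRNA decay, Zc3h12a, an RNase that destroys inflammatory transcripts, was higher in ΔC/- cells with TGFβ (1.93), Zfp36, which promotes their decay, was lower in dm/fl cells (-1.53), and 0 were called with Wnt3a.

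Among 19 tested genes of NF-kB subunits, inhibitors and targets, changes with TGFβ went in both directions. By line, higher and lower calls were 2 and 1 in fl/fl, 0 and 1 in D164A/fl, 1 and 0 in D164A/-, 1 and 0 in ΔC/fl, 3 and 1 in ΔC/-, 1 and 1 in dm/fl and 0 and 2 in dm/- cells, beside 2.5% to 3.68% of all genes higher and 0.88% to 6.88% lower. Csf2, the granulocyte-macrophage growth factor, was higher in fl/fl (5.53), ΔC/- (5.87), dm/fl (3.73) and ΔC/fl cells (3.35), while Csf3 was lower in dm/- cells (-2.97). Tnfaip3, an inhibitor of NF-kB, was higher in D164A/- cells (1.70). With Wnt3a, Csf3 (-2.37) and Tnf (-1.31) were lower in D164A/fl cells, and 0 of the 19 were called in the other lines. Of the 14 interferon response genes 0 were called with Wnt3a in any line. The median log2 fold change of the NF-kB list lay between -0.38 and 0.38 with TGFβ over the 7 lines. Both lists were also counted between untreated deleted and floxed lines. Of the 19 genes of the NF-kB list, 14 were lower and 0 higher in D164A/- than in D164A/fl cells of the TGFβ experiment, where 6 members were lower, with a median log2 fold change of -1.90 beside 8.41% of all genes lower. In the Wnt3a experiment the same comparison gave 2 lower and 0 higher (median -0.77, 2.36% of all genes lower). Of the 14 interferon response genes, 12 were lower in dm/- than in dm/fl cells of the TGFβ experiment (median -2.18, 10.1% of all genes lower), and 0 were lower and 1 higher in the Wnt3a experiment. In the other comparisons of deleted with floxed lines at most 3 genes of the NF-kB list and at most 1 of the interferon list were called in a direction.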

How the data were processed

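RNA of 56 samples was sequenced by the authors as stranded poly(A) libraries. Per the study's methods, single-end reads were mapped to mm10 with RNA-STAR, keeping unique hits, and reads starting in an exon of a RefSeq gene were counted by the QuasR function qCount. The authors deposited a normalized expression signal, made by dividing read counts by an effective library size, and are called CPM. In all samples 100% of values were whole multiples of 1 read (tolerance 0.001 reads), so read counts were recovered. Depth was 22.4 to 33.7 M reads, and 1 read was worth 0.0306 to 0.0486 CPM. Levels of at most 3 reads were not counted as detected, which covers counting error only. Symbols were found for 20261 of 20314 Entrez identifiers. Values were transformed to log2(CPM + 1) and fitted with limma 3.58.1 in R 4.3.3 over all 56 samples with a coefficient for each of 28 conditions and eBayes with a trend. The 13754 genes that reached 1 CPM in 2 or more samples were tested in 57 contrasts. Each contrast's p-values were adjusted over its genes (Benjamini-Hochberg), and a call needed an adjusted p no greater than 0.05 and a change of 1 log2 unit or more in either direction. Fold changes on this scale understate the change of low genes. The results were recomputed with a pseudocount of 0.1, without the filter, with median-of-ratios scaling, with the quasi-likelihood test of edgeR 4.0.16 on recovered reads, on the samples of each comparison alone, with a block for the replicate number, after removal of a trend with GC content (lowess, span 0.3, on 9381 genes averaging 10 CPM or more) and without each sample. A block with crossed pairing was added after seeing the data. The fit was also run on simulated counts with a common dispersion of 0.124 and no replicate or GC structure. That run therefore cannot show how the calls fare under such structure. All 10 members were named, other genes only with their list (at most 4 with the largest change among those called), and the 3 genes with the highest Pearson's r for each member. The members and lists were chosen with earlier results of these data known. Motifs were searched in RefSeq promoters of GRCm38.p6. Python 3.11.15, pandas 2.3.3, numpy 2.4.6 and matplotlib 3.10.9 were used. The treatment protocol in the labels names other lines than the samples do, and the genotypes were taken from the samples' own labels. Some genes are not reported here.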

Additional observations from a re-analysis of the deposited data

Results flagged for a closer look

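For 15 values the response to TGFβ differed between lines by a test of the difference itself (limma, Benjamini-Hochberg adjusted p at most 0.05, difference of at least 1 log2 unit), each line with 2 treated and 2 untreated samples. The Ccl7 response of dm/- cells minus that of dm/fl cells was 5.15 (adjusted p = 5.01e-07), that of dm/fl minus fl/fl was -3.81 (8.66e-05), that of ΔC/- minus ΔC/fl was 2.98 (0.00338) and that of ΔC/- minus fl/fl was 2.75 (0.00917). The Cxcl12 response of D164A/- minus that of fl/fl was 3.88 (0.000979), that of dm/- minus dm/fl was 3.13 (0.00592), that of ΔC/- minus ΔC/fl was -2.74 (0.0344) and that of dm/fl minus fl/fl was -2.52 (0.0494). The Cxcl5 response of dm/- cells was above that of fl/fl by 3.50 (0.0268) and above that of dm/fl by 3.34 (0.0183). The Cxcl10 response of dm/fl minus that of fl/fl was -2.97 (0.0487), and that of dm/- minus dm/fl was 2.99 (0.0289). The Ccl5 response of dm/- exceeded that of dm/fl by 2.20 (0.0376), the Cxcl16 response of ΔC/- that of ΔC/fl by 1.33 (0.0319) and the Ccl20 response of ΔC/fl that of fl/fl by 3.00 (0.0324).

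Of these, the Ccl7 difference between dm/- and dm/fl cells passed under each alternative and without each sample, and it was the only one of the 15 to do so. Each of the other 14 was lost under an alternative or without a sample. Without untreated replicate 1 of dm/fl cells the Cxcl12 difference between dm/fl and fl/fl was -1.67 (limma adjusted p = 0.551), and without treated replicate 1 of dm/- cells the Cxcl10 difference between dm/- and dm/fl was 1.67 (0.385). The untreated level was 0.466 CPM for Ccl20 in ΔC/fl cells and 0.0791 CPM for Ccl7 in fl/fl cells, which left almost no room to fall, so that the Ccl20 difference of ΔC/fl from fl/fl and the Ccl7 difference of dm/fl from fl/fl restate the fall in the other line and do not show a different response. Untreated Ccl7 was also low in dm/- cells (0.307 CPM), and the Ccl7 difference of dm/- from dm/fl joins the fall in dm/fl (-3.92) to a change of 1.23 in dm/- cells. Untreated Cxcl12 did not exceed 0.268 CPM in fl/fl cells, so its rise there is understated on log2(CPM + 1). Part of the Cxcl12 difference of D164A/- from fl/fl comes from this scale.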

How the results depend on the processing

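No call of a member changed its direction under any alternative. The 22 calls with TGFβ became 14 when only the samples compared were fitted, and the counts under the other alternatives were within 1.5 times of 22. The 7 calls with Wnt3a became 3 with a pseudocount of 0.1, 2 with edgeR, 0 with only the samples compared, 11 with the replicate block (among the added calls Cxcl5 in fl/fl and D164A/fl cells, adjusted p = 0.02 and 0.0365) and 4 with the GC trend removed. The 30 calls of deleted against floxed lines became 16 with only the samples compared. The 4 calls between the untreated cells of the experiments became 2 with a pseudocount of 0.1, 1 with edgeR, 0 with only the samples compared and 1 with the replicate block. The 15 differences in the TGFβ response became 5 with edgeR, 27 with the replicate block and 26 with the crossed pairing, and the 0 differences in the Wnt3a response became 1 with only the samples compared, 4 with the block and 6 with the crossed pairing. The cause was not tested. Without each sample in turn the counts were 18 to 24 (TGFβ), 4 to 10 (Wnt3a), 62 to 71 (mutant against fl/fl, 68 in all), 27 to 33 (deleted against floxed), 0 to 5 (between experiments), 9 to 15 (difference in TGFβ response) and 0 to 4 (difference in Wnt3a response). Leaving out a sample left its condition with a lone sample, which was assumed to vary like the others. Of the calls, 8 of 22 with TGFβ, 0 of 7 with Wnt3a, 41 of 68 against fl/fl and 12 of 30 of deleted against floxed lines held under each of these alternatives (the crossed pairing not counted) and without each sample. The labels do not say whether equal replicate numbers mark cultures made together. Deviations of equal numbers between treated and untreated cells correlated across genes in 12 of 14 pairs of conditions with r from 0.33 to 0.93, with r = -0.07 for Wnt3a in dm/fl and r = -0.20 for TGFβ in ΔC/- cells, and only the last was crossed. Fold changes with Wnt3a followed the GC content of genes in ΔC/- (Spearman's rho = 0.77), dm/fl (-0.75) and fl/fl cells (0.74), as a description across genes. Those of untreated mutant lines against fl/fl in the Wnt3a experiment had rho from 0.30 (ΔC/-) to 0.65 (dm/fl). In the TGFβ experiment rho lay between -0.34 (D164A/-) and 0.09 (ΔC/-). Members below 1 CPM in both groups could not reach the required change.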
